A study of Mus musculus with 6 samples.

Results

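The CDK inhibitors of the INK4 and Cip/Kip families and the retinoblastoma pocket proteins were followed through 9 genes, namely Cdkn1b, Cdkn1c, Cdkn2a, Cdkn2b, Cdkn2c, Cdkn2d, Rb1, Rbl1 and Rbl2. They were taken by gene name from a table of 41795 features, and all 9 passed the filter on low counts. RNA was sequenced from breast cancer cells of FVB/N-Tg(MMTV-PyVT)634Mul/J mice, which express the polyoma virus middle T antigen from the mouse mammary tumour virus promoter and develop mammary tumours. The 3 activated and 3 quiescent libraries were labelled as cancer stem cells (CSCs) in these states, all from breast and all carrying the transgene. Age, the sort and the way of activation are not given in the sources used here. Whether replicate libraries stem from different mice or cultures is not stated either, and the p-values therefore cover the spread among 6 samples, which may be technical.

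INK4 proteins bind the kinases CDK4 and CDK6 and keep them from pairing with D-type cyclins. Cip/Kip proteins bind assembled cyclin and CDK complexes, above all those of CDK2. Unphosphorylated pocket proteins hold E2F factors and keep S phase genes off, and phosphorylation by CDKs releases them. The protein of Rbl2 (p130) is known from resting cells and that of Rbl1 (p107) from cycling cells, while the RB protein is present in both. Proteins and phosphorylation were not measured here.

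Transcripts of these brakes did not move as a block. In activated CSCs 6 of the 9 genes rose, which were Rb1, Cdkn2c, Cdkn2d, Rbl1, Cdkn1b and Rbl2, and 2 fell, Cdkn2b and Cdkn2a. Cdkn1c did not pass the threshold. Of all 15223 genes tested 47.5% passed, 24.1% higher and 23.4% lower in activated CSCs. The median log2 fold change of the 9 genes was 0.53, against 0 over all genes tested. Tests used edgeR's quasi-likelihood method on TMM-scaled libraries, and a gene passed at a Benjamini-Hochberg adjusted p under 0.05, with the adjustment made across every gene in the fit. Levels are given in CPM, counts scaled to a common library size. A positive log2 fold change means a higher level in activated CSCs, and SE is its standard error. In a bulk library a change in the share of a cell type and a change in RNA per cell cannot be told apart.

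Libraries held 17842568 to 20510377 counts in activated and 17785331 to 19145576 counts in quiescent CSCs. As a check of the labels, Mki67, a marker of cycling cells, averaged 239 ± 19.4 CPM in activated and 49.8 ± 1.37 CPM in quiescent CSCs (SD, n = 3 each), and Top2a, the topoisomerase of dividing cells, averaged 294 ± 15.7 in activated and 74.6 ± 3.55 CPM in quiescent CSCs. The epithelial marker Epcam averaged 1170 ± 14.4 CPM in activated and 1600 ± 9.77 CPM in quiescent CSCs, and Cdh1, E-cadherin, 943 ± 9.49 in activated and 1170 ± 17.6 CPM in quiescent CSCs. Over 5 epithelial markers the summed level was 6460 to 6660 CPM in activated and 7220 to 7500 CPM in quiescent libraries. Epcam and Cdh1 are the 2 that fell, and 1 rose, Krt14, with 626 ± 20.5 CPM in activated and 507 ± 16.8 CPM in quiescent CSCs. The adjusted p of Krt14 was 7.5e-06 by edgeR. Krt8 (2320 ± 69.6 in activated, 2430 ± 78.1 CPM in quiescent CSCs) and Krt18 (1500 ± 163 in activated, 1620 ± 45.4 CPM in quiescent CSCs) did not pass. Markers of other cells moved with the states too. Of 6 fibroblast markers 5 rose and 0 fell, with a summed level of 1340 to 1500 in activated against 758 to 784 CPM in quiescent CSCs, including the collagen genes Col3a1 (306 ± 9.39 in activated against 111 ± 1.3 CPM in quiescent CSCs) and Col1a2 (366 ± 13.8 in activated against 237 ± 7.76 CPM in quiescent CSCs). Of 6 tested leukocyte markers 3 rose and 1 fell, with a summed level of 842 to 870 in activated against 562 to 593 CPM in quiescent CSCs, including Cd14 at 702 ± 9.31 in activated and 441 ± 8.79 CPM in quiescent CSCs and Itgam at 56.6 ± 3.27 in activated and 38.3 ± 1.22 CPM in quiescent CSCs. Cd14 made up most of that sum. The macrophage gene Cd68 fell, with 50.6 ± 0.758 CPM in activated and 57.4 ± 5.58 CPM in quiescent CSCs (adjusted p = 0.027 by edgeR), and Adgre1 was at 25 ± 2.02 CPM in activated and 24.4 ± 2.55 CPM in quiescent CSCs. The pan-leukocyte gene Ptprc was at 7.13 ± 0.719 in activated and 5.73 ± 0.503 CPM in quiescent CSCs, and the T cell gene Cd3e had 0 counts in the activated and 2 in the quiescent libraries together. None of 3 endothelial markers passed the edgeR threshold, Cdh5 being at 1.61 ± 0.457 in activated and 1.35 ± 0.167 CPM in quiescent CSCs and Pecam1 at 0.577 ± 0.148 in activated and 0.675 ± 0.241 CPM in quiescent CSCs, while the haemoglobin genes had 0 counts and Klf1 was at 0.811 ± 0.186 in activated and 0.455 ± 0.204 CPM in quiescent CSCs. The part of these cells in the results below was not tested.

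Rb1 changed most of the 9. It encodes the retinoblastoma protein, the founding pocket protein and a tumour suppressor (NCBI gene 19645, GRCm38 chromosome 14, 73194453 to 73325885, minus strand). Its level was 129, 120 and 120 CPM in activated libraries 1 to 3, against 44.5, 48.2 and 42.9 CPM in the quiescent ones. Every activated library was far above every quiescent one. The log2 fold change was 1.45 (SE 0.05, 95% interval 1.33 to 1.56, adjusted p = 1.1e-12), a 2.72-fold rise, and 96.8% of the genes tested had a lower or equal log2 fold change.

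The gene Lpar6, a receptor for lysophosphatidic acid, lies inside Rb1 on the opposite strand (chromosome 14, 73237891 to 73240358). It sits in intron 17 of the 27-exon GENCODE transcript of Rb1 and shares 0 exonic bases with it. Lpar6 had 392, 424 and 395 counts in activated and 415, 415 and 431 counts in quiescent libraries. Its level was 21.5 ± 2 CPM in activated and 22.8 ± 0.465 CPM in quiescent CSCs (log2 fold change -0.09, SE 0.08, adjusted p = 0.41 by edgeR), so the values of the nested gene do not show the rise of its host. The microRNA gene Mir687, also within Rb1, had 2 counts in all. Of the 31-base words of the longest Rb1 transcript, 1.66% occur in another gene, mostly in Rcbtb2, whose counts are given further on.

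The other pocket proteins rose less. Rbl1 encodes p107 (chromosome 2, 157145893 to 157204534, minus strand), and its level was 39.9, 43.3 and 39.7 CPM in activated libraries, against 27.7, 28.2 and 27.2 CPM in quiescent ones. These values do not overlap, and the 1.48-fold rise passed (log2 0.57, SE 0.06, adjusted p = 9.4e-07 by edgeR). Rbl2 encodes p130 (chromosome 8, 91070057 to 91123844, plus strand). Its level was 54.9, 55.6 and 55.3 CPM in activated libraries, against 43.1, 46.7 and 41.1 CPM in quiescent ones, again without overlap. Rbl2 had the smallest change that passed among the 9 genes, 1.27-fold (log2 0.34, SE 0.06, adjusted p = 9.2e-05). Its 3′ end overlaps that of Aktip, a gene on the opposite strand, by 418 exonic bases, and 13.4% of the 31-base words of its longest transcript occur in another gene. Aktip fell, with 49.9 ± 0.407 CPM in activated and 59.7 ± 1.6 CPM in quiescent CSCs (log2 -0.26, SE 0.05, adjusted p = 0.00038), the opposite direction to Rbl2. The counting strand is not given, so reads in the shared stretch cannot be assigned with certainty.

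**Figure D1:**
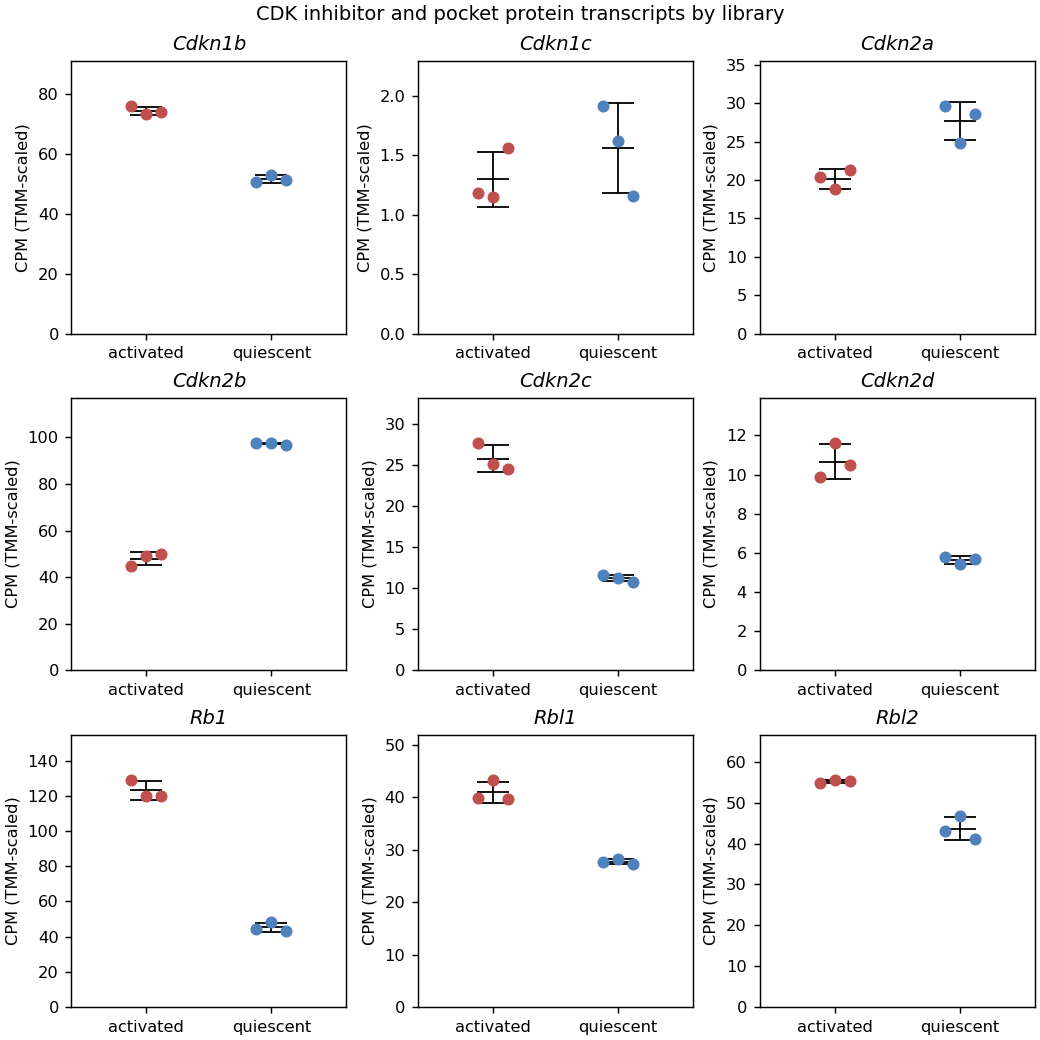
Level of each of the 9 genes in CPM (vertical axis from 0, TMM-scaled) in activated and quiescent libraries. Dots are libraries and bars the mean ± SD of 3. For Rb1 the activated libraries sit at 120 to 129 CPM and the quiescent ones at 42.9 to 48.2 CPM. Cdkn1c, at 1.15 to 1.91 CPM, is the gene whose states overlap.

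The INK4 genes split into a pair that fell and a pair that rose. Cdkn2b encodes p15INK4b, an inhibitor known as a target of TGF-beta signalling (chromosome 4, 89306289 to 89311032, minus strand). Its level was 44.8, 49 and 49.9 CPM in activated libraries, against 97.5, 97.5 and 96.9 CPM in quiescent ones. The quiescent libraries lay within 1 CPM of each other and all activated ones were far below. Cdkn2b fell to 0.493 of its quiescent level (log2 -1.02, SE 0.05, 95% interval -1.13 to -0.91, adjusted p = 5.9e-11 by edgeR).

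Cdkn2a lies 11670 bases from Cdkn2b on the same strand (chromosome 4, 89274473 to 89294619). It encodes p16INK4a and, from another first exon and in another reading frame, p19ARF, which restrains the ubiquitin ligase MDM2 and so spares p53. Its level was 20.4, 18.8 and 21.3 CPM in activated libraries, against 29.6, 24.9 and 28.6 CPM in quiescent ones, and the states did not overlap. Cdkn2a fell to 0.728 of its quiescent level (log2 -0.46, SE 0.08, adjusted p = 0.00024). The 2 GENCODE transcripts of the gene share 49.1% of their exonic bases and a single count was deposited per gene, so the products cannot be separated. The longest Cdkn2a and Cdkn2b transcripts share 0 of their 31-base words with other genes.

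Cdkn2c encodes p18INK4c (chromosome 4, 109660876 to 109666756, minus strand). It was at 27.7, 25.2 and 24.6 CPM in activated libraries, against 11.6, 11.3 and 10.8 CPM in quiescent ones. With a 2.3-fold rise (log2 1.2, SE 0.08, adjusted p = 3.7e-09 by edgeR) it had the largest change of the inhibitors. Cdkn2d encodes p19INK4d (chromosome 9, 21288459 to 21291402, minus strand), which is not the ARF protein of Cdkn2a. It was at 9.85, 11.6 and 10.5 CPM in activated libraries, against 5.79, 5.41 and 5.67 CPM in quiescent ones. Both genes had separate states, and Cdkn2d rose 1.89-fold (log2 0.92, SE 0.12, adjusted p = 5.3e-06 by edgeR) on 100 to 216 counts per library.

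The Cip/Kip genes also differed. Cdkn1b encodes p27, whose amount in cells is set largely by the breakdown of the protein (chromosome 6, 134920401 to 134925525, plus strand). It was at 75.9, 73.3 and 74 CPM in activated libraries, against 50.6, 53.1 and 51.2 CPM in quiescent ones. Its transcript was higher in every activated library and rose 1.44-fold (log2 0.53, SE 0.05, adjusted p = 1.4e-07 by edgeR). Cdkn1c encodes p57, the product of an imprinted gene (chromosome 7, 143458339 to 143461073, minus strand). It had 21, 21 and 32 counts in activated libraries, against 34, 30 and 22 in quiescent ones, so it was close to the lower end of what was measured. Cdkn1c did not pass (log2 -0.26, SE 0.27, adjusted p = 0.46 by edgeR), and its 95% interval from -0.83 to 0.31 leaves changes of either sign within reach at this depth. Of its 31-base words 28.4% occur in another annotated gene, which adds to the uncertainty of its counts.

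In all, 8 of the 9 genes had states that did not overlap in CPM, and so did 55.9% of all genes tested. Cdkn1a, the remaining Cip/Kip gene, encodes p21 and is a target of p53. It fell to 181 ± 8.32 CPM in activated CSCs, against 404 ± 9.08 CPM in quiescent ones (log2 -1.16, SE 0.04, adjusted p = 4.5e-13), so that the 3 Cip/Kip genes held 1 that rose, 1 that fell and 1 that did not pass.

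**Figure D2:**
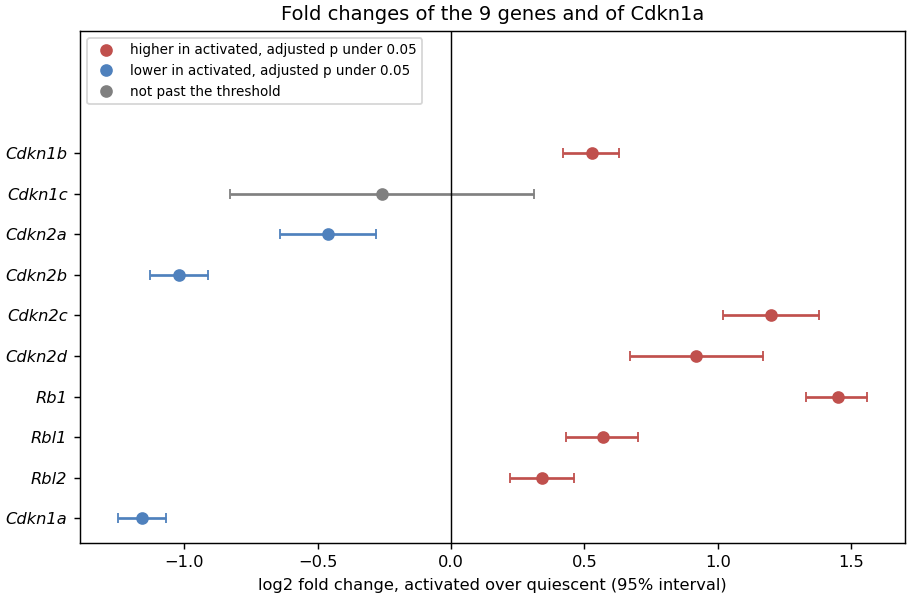
Log2 fold change of activated over quiescent CSCs (horizontal axis) for the 9 genes and Cdkn1a, with 95% intervals from the fit across all genes. Rb1 at 1.45 and Cdkn2c at 1.2 lie farthest right, Cdkn2b at -1.02 and Cdkn1a at -1.16 farthest left, and the interval of Cdkn1c spans 0.

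Upstream stretches are shown for Rbl1, which rose, and Cdkn2a, which fell, because both hold E2F letters, and for Cdkn2b, which fell, because it holds the letters of a cyclic AMP response element (CRE). They come from RefSeq's gene starts (GRCm38.p6), which gave 9 windows for 7 of the 9 genes. Rb1 and Cdkn1c had no window and were not searched. The stretches shown run 5′ to 3′ on the minus strand, ending before the annotated transcripts begin. Capitals in the Rbl1 and Cdkn2a sequences mark an E2F motif, and in Cdkn2b the CRE. Rbl1 is at chr2:157204535-157204784, Cdkn2a, upstream of the exon for p19ARF, at chr4:89294654-89294869, and Cdkn2b at chr4:89311040-89311282.
Rbl1: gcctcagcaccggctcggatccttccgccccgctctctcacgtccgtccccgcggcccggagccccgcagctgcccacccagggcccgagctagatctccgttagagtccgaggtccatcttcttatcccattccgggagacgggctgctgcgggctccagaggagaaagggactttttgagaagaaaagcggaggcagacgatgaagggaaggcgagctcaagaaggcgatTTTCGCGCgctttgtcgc
Cdkn2a: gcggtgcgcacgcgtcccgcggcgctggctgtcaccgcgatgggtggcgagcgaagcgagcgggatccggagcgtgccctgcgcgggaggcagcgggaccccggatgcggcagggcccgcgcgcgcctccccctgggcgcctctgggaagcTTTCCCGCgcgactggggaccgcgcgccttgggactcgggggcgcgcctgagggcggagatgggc
Cdkn2b: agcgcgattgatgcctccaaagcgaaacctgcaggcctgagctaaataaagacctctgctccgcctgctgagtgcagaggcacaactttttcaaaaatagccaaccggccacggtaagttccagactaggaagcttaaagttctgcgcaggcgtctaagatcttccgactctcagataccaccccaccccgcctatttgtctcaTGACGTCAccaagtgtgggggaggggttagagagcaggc

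The E2F letters searched were TTTCCCGC, TTTCGCGC, TTTGCCGC and TTTGGCGC, on both strands of the 250 bases before a start. They were found in 2 of the 9 windows, which cover 7 of the genes and not Rb1 or Cdkn1c. The places were -18 to -11 from the start of Rbl1, which rose, and -99 to -92 from that of Cdkn2a, which fell. Places are counted from the RefSeq start. The Cdkn2a and Cdkn2b stretches shown stop short of it, so counting back from their last base gives other places. Of all 32851 windows in that set, 1.86% held one. The CRE letters TGACGTCA were found in 1 of the 9 windows, that of Cdkn2b, at -46 to -39, and in 1.55% of all windows. The FOXO letters GTAAACA were in 0 of the 9 windows and 3.17% of all windows. The GC box GGGCGG was in 5 of the 9 and 32.7% of all windows, TTTGAA in 2 and 16% and CCAAT in 2 and 33.8%. None of these 6 motifs overlapped another at the places shown in capitals. Such matches describe letters and not the binding of a factor.

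Levels of different genes were compared per kilobase of gene length, as CPM per kilobase. The order depends on the length used. For Cdkn1b this was 2405 bases, whereas its longest GENCODE transcript has 4552, and with that length its level would be lower. Its place in the order is therefore uncertain. In activated CSCs the order was Cdkn2b at 34.4 ± 1.96, Cdkn1b at 30.9 ± 0.559, Rb1 at 23.4 ± 0.933, Cdkn2a at 17.8 ± 1.12, Cdkn2c at 11.5 ± 0.721, Rbl2 at 11.2 ± 0.0785, Rbl1 at 7.39 ± 0.365, Cdkn2d at 7.32 ± 0.587 and Cdkn1c at 0.648 ± 0.116 CPM per kilobase (SD, n = 3). Cdkn2c and Rbl2, and Rbl1 and Cdkn2d, were neighbours whose gap was smaller than the larger of their SDs. In quiescent CSCs Cdkn2b stood at 69.8 ± 0.248, Cdkn2a at 24.4 ± 2.17, Cdkn1b at 21.5 ± 0.538, Rbl2 at 8.86 ± 0.577, Rb1 at 8.6 ± 0.521, Cdkn2c at 4.99 ± 0.182, Rbl1 at 4.99 ± 0.0975, Cdkn2d at 3.86 ± 0.134 and Cdkn1c at 0.781 ± 0.191 CPM per kilobase. There the gaps between Rbl2 and Rb1, and between Cdkn2c and Rbl1, were smaller than either SD. Within each quiescent library Rbl2 was still slightly above Rb1 (8.75, 9.48 and 8.34 against 8.46, 9.17 and 8.16). The order of Cdkn2a and Cdkn1b turned over in quiescent library 2, at 22 against 22.1. Rb1 thus stood well above Rbl2 in activated CSCs. In quiescent ones its place just below Rbl2 rests on the gene lengths used, 5256 bases for Rb1 and 4925 for Rbl2. By CPM, Rb1 was slightly above Rbl2 in each quiescent library, at 44.5, 48.2 and 42.9 against 43.1, 46.7 and 41.1. The 2 genes are therefore not ranked in quiescent CSCs.

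The make-up of the inhibitor transcripts differed between the states. Cdkn2b held 33.5 ± 1.57% of the summed level per length of the 6 inhibitor genes in activated and 55.7 ± 0.845% in quiescent CSCs. The share of Cdkn1b was 30.2 ± 0.856% in activated and 17.1 ± 0.672% in quiescent CSCs, and that of Cdkn2c 11.2 ± 0.845% in activated and 3.98 ± 0.126% in quiescent CSCs. Cdkn2d held 7.14 ± 0.578% in activated and 3.08 ± 0.0649% in quiescent CSCs, Cdkn2a 17.3 ± 0.954% in activated and 19.5 ± 1.47% in quiescent CSCs, and Cdkn1c 0.631 ± 0.103% in activated and 0.623 ± 0.148% in quiescent CSCs. Such shares do not depend on the scaling between libraries. The size of these shares and of the sums below does depend on the gene lengths, of which that of Cdkn1b is uncertain. By CPM, Cdkn1b held 41.3 ± 0.82% in activated and 26.5 ± 0.859% in quiescent CSCs. The states overlapped in the shares of Cdkn2a and Cdkn1c and were apart in the other 4. The level of Cdkn2a counts transcripts of p16INK4a and p19ARF together, here and in the sums below.

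Cdkn1b and Cdkn1c together held 31.7, 30.5 and 30.3% of these 6 genes in activated libraries, against 17.3, 18.5 and 17.4% in quiescent ones. The difference of 13.1 percentage points had p = 0.1 in an exact two-sided permutation test, the smallest p that 3 libraries against 3 allow, and 0.1 after adjustment over the 2 shares tested. The direction turned when Cdkn1a was counted as well. The 3 Cip/Kip genes then held 51.7 ± 0.334% in activated and 54.1 ± 0.933% in quiescent CSCs (exact permutation p = 0.1), a difference of -2.37 percentage points. Within that pool Cdkn1a had 30.2 ± 0.848% in activated and 44.2 ± 0.823% in quiescent CSCs, and Cdkn1b 21.1 ± 0.816% in activated and 9.56 ± 0.292% in quiescent CSCs.

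Summed over the 6 inhibitor genes the level was 101, 102 and 104 CPM per kilobase in activated libraries, against 127, 124 and 125 in quiescent ones, a ratio of 0.818. With Cdkn1a the sum was 147 ± 3.18 in activated and 225 ± 1.84 CPM per kilobase in quiescent CSCs, a ratio of 0.654. The fall of the sum came with Cdkn2a and Cdkn2b, at 52.1 ± 2.25 in activated and 94.2 ± 2.09 CPM per kilobase in quiescent CSCs, while Cdkn2c and Cdkn2d together were at 18.8 ± 0.546 in activated and 8.85 ± 0.253 in quiescent CSCs. The kinases that INK4 proteins bind moved less. Cdk4 was at 155 ± 2.51 in activated and 128 ± 3.44 CPM per kilobase in quiescent CSCs (log2 0.27, SE 0.04, adjusted p = 1.2e-05 by edgeR), and Cdk6 at 4.59 ± 0.0916 in activated and 5.83 ± 0.103 in quiescent CSCs (log2 -0.34, SE 0.05, adjusted p = 2e-05). The summed INK4 level per summed level of Cdk4 and Cdk6 was 0.435, 0.436 and 0.461 in activated libraries. In quiescent ones it was 0.769, 0.772 and 0.765, a gap far wider than the spread within a state. This INK4 sum takes the whole count of Cdkn2a, in which p16INK4a and p19ARF cannot be separated. It is therefore not a measure of INK4 transcripts alone.

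Among the pocket proteins Rb1 held 57.2, 54.5 and 55.5% of the summed level per length in activated libraries, against 38.1, 38.6 and 38.1% in quiescent ones. The difference of 17.4 percentage points had the smallest p possible, 0.1, in the exact permutation test, and 0.1 after adjustment over both shares tested. Rbl2 held 26.7 ± 0.62% in activated and 39.4 ± 0.47% in quiescent CSCs, and Rbl1 17.6 ± 0.926% in activated and 22.3 ± 0.743% in quiescent CSCs. So Rbl1 and Rbl2 had smaller shares of the pocket transcripts in activated CSCs although each rose. Per length, Rb1 was at 2.09 ± 0.0968 times Rbl2 in activated and at 0.971 ± 0.00592 times in quiescent CSCs. The quiescent order depends on the gene lengths. By CPM, Rb1 held 38.8 ± 0.32% and Rbl2 37.4 ± 0.473% of the pocket pool in quiescent CSCs. The summed pocket level was 42 ± 0.778 CPM per kilobase in activated and 22.4 ± 1.19 in quiescent CSCs, a ratio of 1.87.

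**Figure D3:**
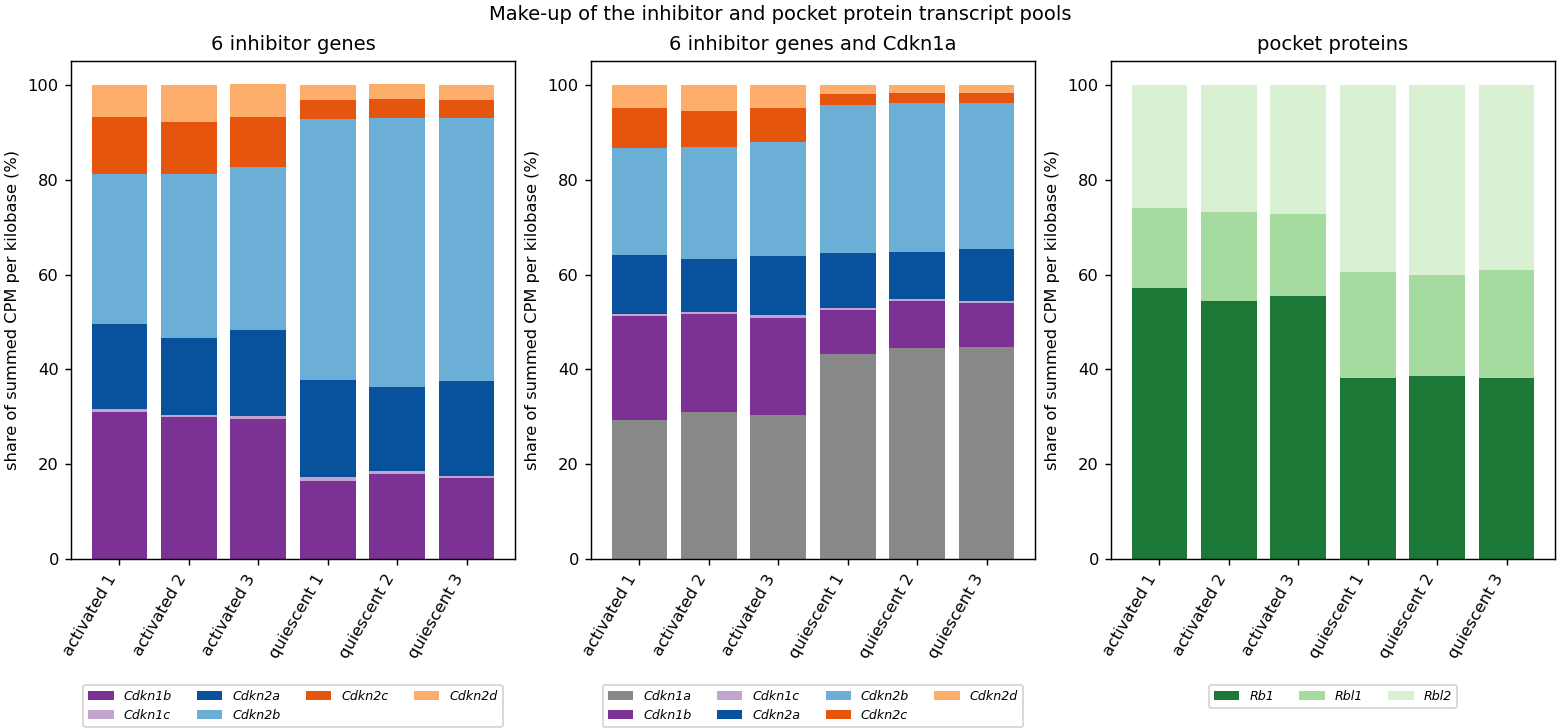
Share of the summed CPM per kilobase (vertical axis, percent) in each of the 6 libraries for the 6 inhibitor genes, for these with Cdkn1a, and for the 3 pocket protein genes. Cdkn2b fills 31.7 to 34.5% of the first pool in activated and 55 to 56.7% in quiescent libraries, and Rb1 fills 54.5 to 57.2% and 38.1 to 38.6% of the pocket pool.

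Other genes of the pathway were read from lists. Each count stands beside 24.1% higher and 23.4% lower over all genes tested. Of 12 G1 cyclin and kinase genes 3 rose, 3 fell and 6 did not pass, close to those shares. The median log2 fold change of this list was 0.1, against 0 over all genes. D-type cyclins activate the kinases that INK4 proteins block, and 2 of their 3 genes fell, Ccnd2 to 65.2 ± 3.48 CPM in activated CSCs against 132 ± 2.56 CPM in quiescent ones, and Ccnd1 to 437 ± 15.1 in activated against 592 ± 5.39 CPM in quiescent CSCs. The adjusted p were 2.1e-11 and 5.2e-08 by edgeR. The other D-type cyclin gene, Ccnd3, did not pass, with 69.4 ± 4.16 CPM in activated and 60.2 ± 7.07 CPM in quiescent CSCs (log2 0.21, SE 0.08, adjusted p = 0.054), and its libraries were higher in activated CSCs without overlap.

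Of 10 genes for E2F factors and their DP partners 6 rose, 1 fell and 3 did not pass (median 0.27). Of the 5 E2F genes whose products bind pocket proteins, E2f1 (log2 0.27, SE 0.06, adjusted p = 0.0013 by edgeR) and E2f2 (log2 0.31, SE 0.11, adjusted p = 0.034) rose, while E2f3, E2f4 and E2f5 did not pass, with log2 fold changes of 0.11, -0.14 and -0.09. E2f6, a repressor that binds no pocket protein, fell (log2 -0.36, SE 0.07, adjusted p = 0.00037). E2f8 and E2f7 likewise encode repressor E2Fs outside the reach of pocket proteins, and both rose. E2f8 was at 21 ± 1.02 CPM in activated and 10.8 ± 1.27 CPM in quiescent CSCs (adjusted p = 4e-07 by edgeR), and E2f7 at 13.1 ± 0.943 CPM in activated and 8.76 ± 0.637 CPM in quiescent CSCs (adjusted p = 0.00022). Of 17 E2F target genes of S phase 16 rose, 0 fell and 1 did not pass (median 0.58). Rrm1, whose enzyme makes deoxynucleotides, rose 2.39-fold (186 ± 1.91 in activated against 77.8 ± 0.243 CPM in quiescent CSCs, adjusted p = 6.8e-14), and the thymidine kinase gene Tk1 rose 2.49-fold (68.1 ± 4.84 in activated against 27.3 ± 1.8 CPM in quiescent CSCs, adjusted p = 4.1e-11). The target that did not pass, Cdc45, had an SE of 1.29 from counts that varied widely within a state. Of 7 genes of the MuvB complex and its partners B-Myb and FoxM1, which take over from p107 or p130 in cycling cells, 4 rose and 0 fell (median 0.33). Foxm1 was at 44.9 ± 1.96 in activated and 13.6 ± 1.4 CPM in quiescent CSCs and Mybl2, which encodes B-Myb, at 21.3 ± 1.6 in activated and 12 ± 1.23 CPM in quiescent CSCs.

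Of 13 tested genes for the turnover of these proteins 4 rose, 2 fell and 7 did not pass (median 0.02). The share called was near the 47.5% of all genes tested, so the count does not set this list apart. Cks1b, a cofactor in the marking of p27 for breakdown, rose 1.77-fold (46.5 ± 2.56 in activated against 26.2 ± 0.998 CPM in quiescent CSCs) and Fzr1, an activator of the anaphase-promoting complex, 1.36-fold (74.2 ± 3.27 in activated against 54.5 ± 2.1 CPM in quiescent CSCs). The adjusted p were 9.3e-09 and 2.8e-06 by edgeR. Skp2, the subunit that recognises p27, missed the filter on low counts, with 3, 5 and 4 counts in activated and 18, 9 and 21 in quiescent libraries. It overlaps Lmbrd2 on the other strand, which swung between 17 and 132 counts in activated and between 15 and 254 in quiescent libraries, so no direction is read from Skp2. Within 100 kb of each of the 9 genes, 0 genes had such swings (over 3-fold in CPM within a state, with a floor of 1 CPM).

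Of 23 regulators of the inhibitor genes 4 rose, 9 fell and 10 did not pass (median -0.04). Over all genes tested 24.1% rose and 23.4% fell. Among the regulators that did not pass, Ets2 (24.4 ± 16.5 CPM) and Men1 (3.41 ± 4.71 CPM) varied widely among activated libraries. Their SEs were 1.08 and 1.43, so no direction is read from them. Smad3, a carrier of TGF-beta signals to genes such as Cdkn2b, fell to 135 ± 4.59 CPM in activated CSCs against 225 ± 6.23 CPM in quiescent ones, and Myc, a repressor of Cdkn2b and Cdkn1a transcription, to 61.7 ± 1.97 in activated against 88.9 ± 0.857 CPM in quiescent CSCs. The adjusted p were 1.5e-10 and 1e-07 by edgeR. Of 6 genes of the ARF, MDM2 and p53 arm, 2 rose and 3 fell (median -0.09). Mdm2 and Cdkn1a, both p53 targets, fell most, Mdm2 to 152 ± 8.28 in activated against 658 ± 22.1 CPM in quiescent CSCs. Of 10 co-repressor and phosphatase genes that act on RB, 6 rose and 0 fell (median 0.18). The histone methyltransferase gene Suv39h1 was at 28.9 ± 0.648 in activated and 15.9 ± 0.461 CPM in quiescent CSCs and the phosphatase gene Ppp1cb at 460 ± 7.87 in activated and 384 ± 16.1 CPM in quiescent CSCs.

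**Figure D4:**
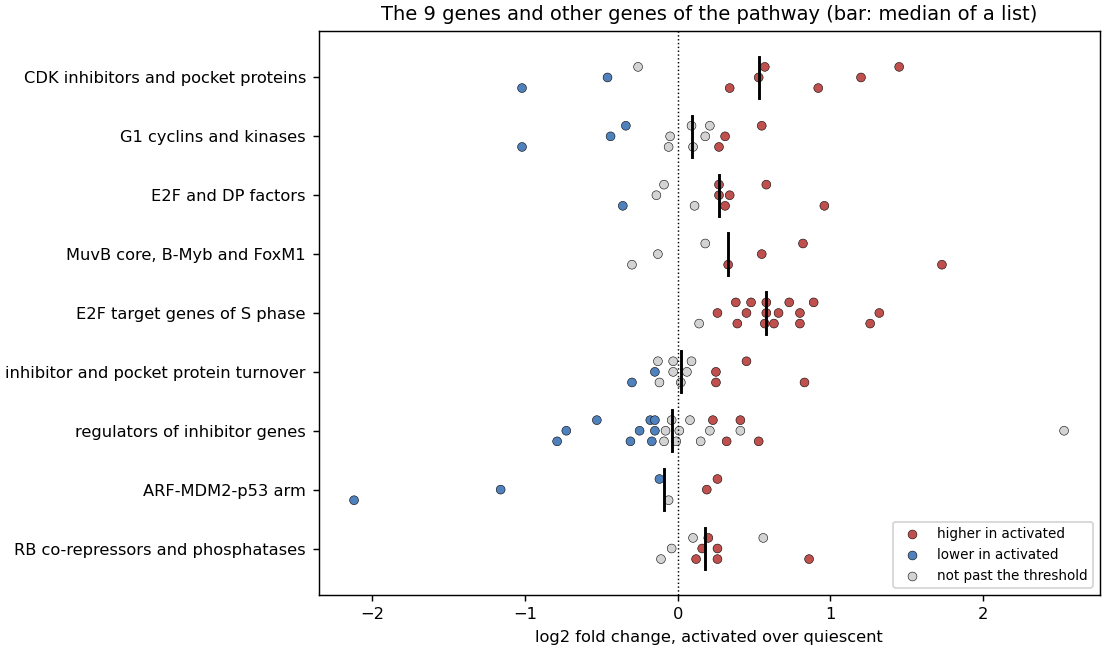
Log2 fold change of activated over quiescent CSCs (horizontal axis) for the 9 genes and for the tested genes of 8 pathway lists. Dots are genes, coloured by the edgeR call, and bars are medians, from -0.09 for the ARF, MDM2 and p53 arm to 0.58 for E2F targets of S phase.

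For each of the 9 genes the protein-coding gene with the most similar profile was taken by Pearson's r of log2 CPM over the 6 libraries, as a description of these libraries. Many genes reached a high r with some of them, as with Rb1, for which 514 of 13390 genes had an r of at least 0.99. The count was 462 for Cdkn2c, 459 for Cdkn1b, 383 for Cdkn2b, 186 for Cdkn2d and 170 for Rbl1. It was 23 for Rbl2, 11 for Cdkn2a and 0 for Cdkn1c. A nearest gene is thus often 1 of many with a similar profile. The nearest were Tmpo for Rb1 (r = 0.9999), Birc5 for Cdkn2c (0.99964), Cyp51 for Cdkn1b (0.9997), Mgat4b for Cdkn2b (0.99963), Dazap1 for Cdkn2d (0.99902), Rcbtb1 for Rbl1 (0.99859), Mtfr1l for Cdkn2a (0.99796) and Egr4 for Rbl2 (0.99714). Cdkn1c, with few counts, was nearest to Dcdc2b (0.97116). Egr4 was low as well, at 1.58 ± 0.247 CPM in activated and 0.218 ± 0.143 CPM in quiescent CSCs, so its r rests on few counts. Likeness in r says nothing of size, as Tmpo rose 1.54-fold and Rb1 2.72-fold.

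Genes beside the 9 were compared with them. Within 20 kb lay 20 other genes, of which 12 were tested, and 4 rose, 2 fell and 6 did not pass, a share called near the 47.5% of all genes tested, so the count sets the neighbours apart in no way. Lockd, a long non-coding RNA gene that begins 3567 bases after Cdkn1b on the same strand, had 75, 87 and 91 counts in activated libraries, against 18, 20 and 28 in quiescent ones. It rose 3.74-fold (log2 1.9, SE 0.21, adjusted p = 8.5e-07 by edgeR), more than Cdkn1b. Rcbtb2, next to Rb1, was at 34.7 ± 2.57 in activated and 21.8 ± 1.03 CPM in quiescent CSCs (log2 0.67, SE 0.07, adjusted p = 1.2e-06). Samhd1, which encodes an enzyme that breaks down deoxynucleotides and lies next to Rbl1, was at 67.2 ± 2.05 in activated and 30.7 ± 1.29 CPM in quiescent CSCs, a 2.19-fold rise (adjusted p = 3e-11) that exceeded that of Rbl1. Slc22a18, next to Cdkn1c in the same imprinted region, fell to 15.1 ± 1.07 in activated against 22.3 ± 0.27 CPM in quiescent CSCs (adjusted p = 2.4e-05). Gm12610, a non-coding gene that spans Cdkn2b on the other strand, had 11, 17 and 14 counts in activated and 20, 24 and 9 in quiescent libraries and did not pass (adjusted p = 0.46). LOC105244345, within Rbl1, had at most 5 counts in a library. The 3 tested neighbours of Cdkn2d ranged in log2 fold change from -0.19 to 0.18, and Faf1 beside Cdkn2c was at -0.04.

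**Figure D5:**
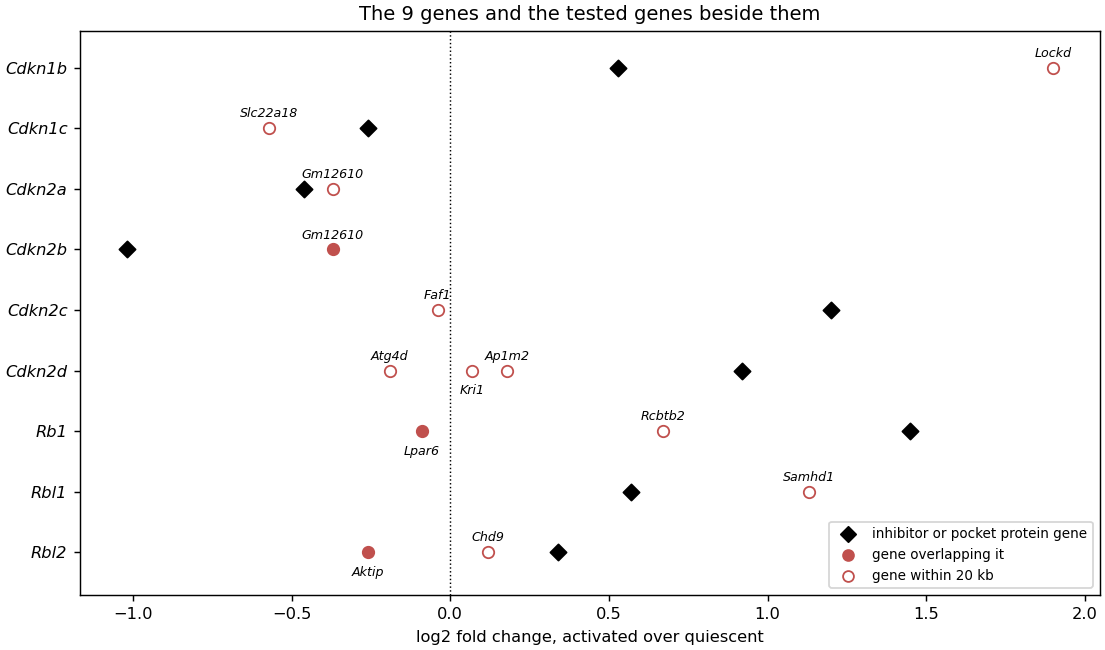
Log2 fold change of activated over quiescent CSCs (horizontal axis) of each of the 9 genes (diamonds) and of the tested genes that overlap it (filled circles) or lie within 20 kb (open circles). Lpar6 at -0.09 lies apart from its host Rb1 at 1.45, and Lockd at 1.9 lies beyond Cdkn1b at 0.53.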

How the data were processed

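Per the labels' protocols, Trizol was used for the RNA and a NEBNext Ultra kit for the libraries. The authors deposited raw counts per gene, and the submitters' processing notes name featureCounts 1.5.0-p3, HISAT2 2.0.5 and StringTie 1.3.3b, with no roles. The chromosome accessions of the deposited table are those of GRCm38. A total of 187 features without a gene name, with 0.144 to 0.239% of a library's counts, were kept. The 9 genes and all gene lists were chosen with earlier results of these data known.

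The test was that of edgeR 4.0.16 under R 4.3.3 (quasi-likelihood, robust, TMM, filterByExpr) on all 6 libraries, activated over quiescent, after a check on simulated data. That check changed few genes and gave every gene the same variability. It therefore does not speak to data with as many changes as these. Named genes were the 9 genes, Cdkn1a, the 2 genes with the smallest adjusted p of each list, overlapping genes and nearest profiles. Others, such as Lockd, Samhd1, Rcbtb2, Slc22a18, Skp2, Cdk4, Cdk6, Ccnd3, E2f1 to E2f6, Cd68 and Adgre1, were chosen after their values were seen. So were Krt8, Krt14, Krt18, Ets2 and Men1. Levels per length used the gene length of the deposited table. Shares were tested with an exact permutation test (scipy 1.17.1). Within each state, every pair of libraries exceeded sampling noise (chi-square over degrees of freedom 4.01 to 7.99), so all 6 were used. Alternatives were DESeq2 1.42.0, limma-voom (limma 3.58.1), other scalings, filters and thresholds, protein-coding genes alone, dropping single libraries and a replicate block.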

Additional observations from a re-analysis of the deposited data

How the results depend on the processing

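Each of the 8 genes called kept its direction and passed the threshold under all 16 alternatives, and Cdkn1c passed under none. The log2 fold change of Rb1 ran from 1.41 to 1.5, of Cdkn2b from -1.05 to -0.97, of Cdkn2c from 1.15 to 1.24 and of Rbl2 from 0.3 to 0.39. That of Cdkn2a ran from -0.53 to -0.41, with an adjusted p of at most 0.0028, and that of Cdkn1c from -0.44 to -0.09, with an adjusted p from 0.23 to 0.84. The share of all tested genes called under these alternatives was 28 to 51.3%. Genes changed numbered 7236 as reported, 6298 with DESeq2, and 6387 to 7359 when each library was left out. The difference in the share of Cdkn1b and Cdkn1c moved to 14.7 percentage points with CPM in place of the level per length, and reversed to -2.37 with Cdkn1a in the pool, which by construction adds a gene that fell. It ran from 12.6 to 13.4 without each library, and that of Rb1 from 16.7 to 18.

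With the replicate number as a block 7042 genes changed and no call among the 9 genes changed, Rb1 staying at 1.45. The labels share only a number: deviations of same-numbered libraries correlated at 0.00782, -0.0298 and 0.0438, and not every library correlated best with its own number. Depth limits Cdkn1c, with 21 to 34 counts per library.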
